A study of Mus musculus with 12 samples.

Results

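RNA levels of 10 genes of the NRF2 antioxidant pathway were examined in 3T3-L1, a line of mouse fibroblasts that hormonal induction can turn into adipocytes. The genes were Nfe2l2, Keap1 and the antioxidant genes Nqo1, Hmox1, Gclc, Gclm, Txnrd1, Srxn1, Slc7a11 and Gpx3. They were taken by symbol from a table of 55487 genes, and each symbol had 1 row. The values are TPM, relative transcript abundances corrected for length, so levels can be compared between genes. Of the 10 genes, 9 reached 1 TPM in 2 or more libraries and were tested among 15968 genes, and Gpx3 did not.

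NRF2, the product of Nfe2l2, is a transcription factor that switches on genes against oxidative and electrophilic stress. In resting cells its partner KEAP1 hands it to a ubiquitin ligase for destruction, so that the pathway is controlled mainly at the level of protein, which RNA-seq does not measure. When reactive compounds modify KEAP1, NRF2 is spared, pairs with small MAF proteins and binds antioxidant response elements, while BACH1 competes for the same elements and represses genes such as Hmox1. The target genes make glutathione, reduce thioredoxin and peroxiredoxins, break down heme and reduce quinones.

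The shFto cells carried a short hairpin that targets Fto, the gene of an RNA demethylase, and the shScram cells carried a scrambled control. They were harvested as preadipocytes (Pre), at the mitotic clonal expansion stage after induction with MDI medium (MCE), and as cells labelled mature adipocytes (Diff). Each of the 6 groups had 2 libraries. All cells shared lentiviral infection and puromycin selection, which of the study's hairpins against Fto was used is not given in the sources used here, and hairpin and line cannot be told apart. The p-values rest on the spread between the 2 libraries of a group, pooled over all 6 groups, and not on the compared groups alone. That spread may be technical because the labels do not name separate cultures. With only the preadipocyte libraries in the fit, 0 of 15968 tested genes were called between the lines. Because TPM sets each library to a fixed total, the depth behind each value is unknown.

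Fto stood at 52.7 to 73.5 TPM in the 6 shScram libraries and at 5.51 to 7.47 TPM in the 6 shFto libraries. Replicate 1 of shScram Pre stood apart from its partner, with a correlation over genes of 0.939 against 0.990 to 0.993 in the other groups, and mitochondrial transcripts took 14.5% of its TPM against 4.58% to 9.17% in the other libraries. The title of replicate 1 of shScram Diff names shScram although its treatment field gives the knockdown, so its group here rests on the title. Fto stood at 73.5 TPM in that library, the highest of the 12. Fibroblast markers summed to 9957 to 15232 TPM, with none of 10 at 0 in any library. Macrophage markers summed to 1.62 to 11.04 TPM over 7 genes and endothelial markers to 0.375 to 1.24 TPM over 5 genes. Adipocyte markers differed between the lines. Their sum over 10 genes at the Diff stage was 1601 and 1587 TPM in the shScram libraries and 484 and 448 TPM in the shFto libraries, although both groups are labelled mature adipocytes.

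Stretches of promoter that hold the core of the antioxidant response element are shown because they are the sequence by which genes of this pathway are usually recognised. RefSeq promoters on GRCm38.p6, from 250 bases before to 50 bases after a start site, matched 8 of the 10 genes, and Hmox1 and Gclc were not among them. The letters TGACNNNGC were searched on both strands. They were found in promoters of Nfe2l2, Gclm, Txnrd1 and Srxn1 and not in those of Keap1, Nqo1, Slc7a11 and Gpx3. Of all 32851 promoters in the collection, 12.4% held these letters, and of its 27025 genes 13.99% had a promoter that did. Each line gives 30 bases 5′ to 3′ on the strand of the motif, with the motif in capitals.
Nfe2l2: tcagcccaccTGACTCCGCcatgccccgga
Gclm: ctcgtgagagtTGACGGTGCgcccgggagc
Txnrd1: ccgtgtcagaaTGACAAAGCaaaaatccag
Srxn1: gtgtctcactcTGACCTAGCtgcccactgc
The Nfe2l2 stretch lies at chr2:75704884-75704913 on the minus strand, which is the strand of the gene, and its motif begins at position -240 from the start site. The Gclm stretch lies at chr3:122245413-122245442 (position -134), the Txnrd1 stretch at chr10:82859104-82859133 (position -92, in 1 of 3 promoters) and the Srxn1 stretch at chr2:152105542-152105571 (position 28). These 3 are printed from the minus strand, opposite to the gene. Their positions are those of the motif's first base along the gene, which is its last capital letter as printed. A match is a description of letters and not a measured binding site.

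**Figure D1:**
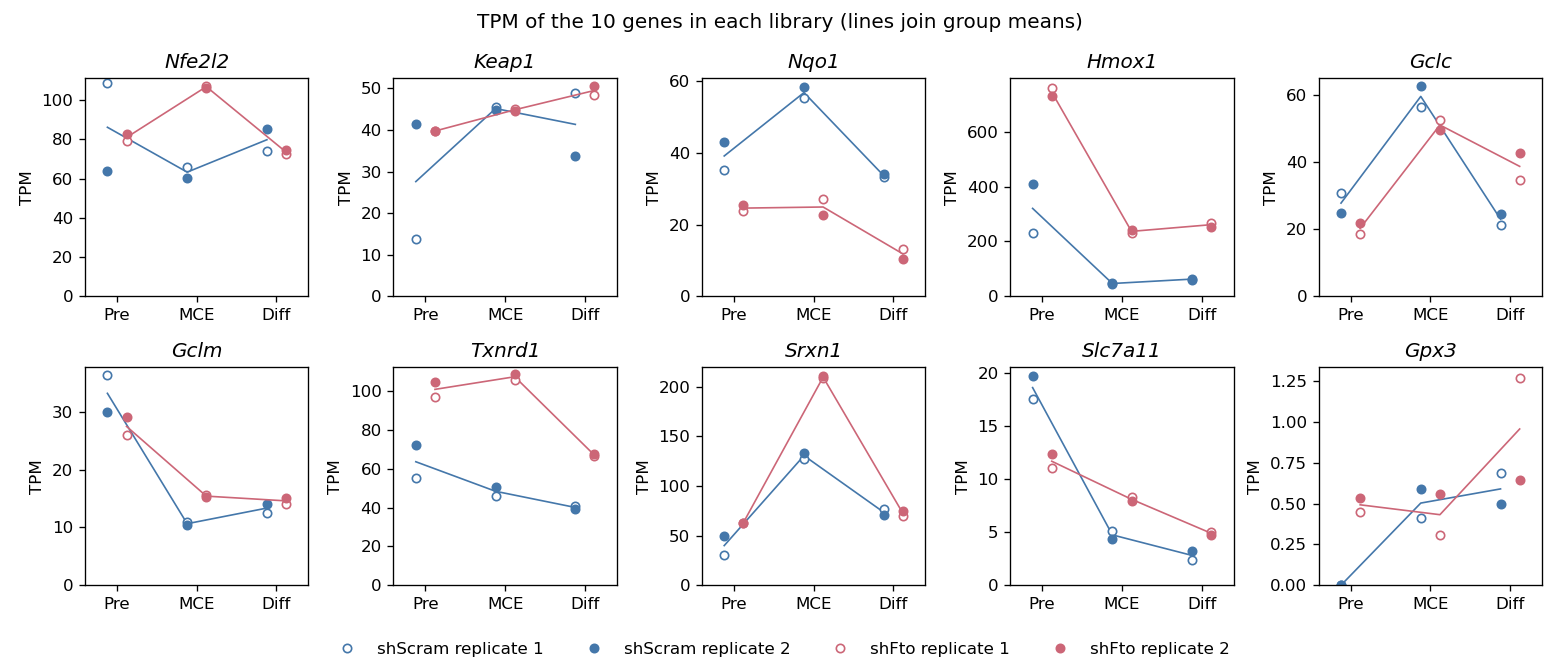
TPM of each of the 10 genes (vertical axes, a linear scale that starts at 0 in each panel) by stage (horizontal axes). Colours show shScram and shFto, points the 2 libraries of a group, and drawn lines join the group means. Hmox1 reached 759 and 730.0 TPM in shFto preadipocytes, the highest values of the 10 genes, and Gpx3 stayed at or below 1.27 TPM in all libraries.

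Levels differed widely between the genes. Hmox1 was the most abundant of the 10 in shFto cells at all 3 stages. In shScram cells it had rank 1 in preadipocytes, rank 6 at the MCE stage, where Srxn1 was the most abundant, and rank 3 at the Diff stage, where Nfe2l2 was. Slc7a11 had rank 9 and Gpx3 rank 10 in every group.

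Nfe2l2, the gene of NRF2 itself (ENSMUSG00000015839, chr2:75675513-75704641 on GRCm38), was transcribed in all 12 libraries at 60.4 to 109 TPM. The shScram libraries held 109 and 63.6 TPM as preadipocytes, then 66.1 and 60.4 TPM at MCE and 74.2 and 85.4 TPM at Diff. The shFto libraries held 79.2 and 82.7 TPM, 107 and 106 TPM, and 72.3 and 74.6 TPM at the same stages. Both shFto libraries at the MCE stage lay above both shScram libraries, whereas the lines overlapped in preadipocytes. The difference at the MCE stage was 0.75 ± 0.21 (SE) on the log2(TPM + 1) scale, a scale that understates the change of low genes (limma, adjusted p = 0.0408). This call was lost when any single library other than those of shScram Pre was left out (adjusted p from 0.0629 to 0.193, with differences of 0.68 to 0.81). It was also lost with median-ratio scaling (0.68, adjusted p = 0.0892), with quantile normalization (0.60, adjusted p = 0.141) and with no filter on low values (adjusted p = 0.0956). In preadipocytes the difference was -0.04 (adjusted p = 0.901), and it became 0.34 (adjusted p = 0.0262) without replicate 1 of shScram Pre. At the Diff stage it was -0.11 (adjusted p = 0.761). A small nuclear RNA gene, Gm24996, lies within Nfe2l2 on the same strand.

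Keap1, the sensor that holds NRF2 back (ENSMUSG00000003308, chr9:21229730-21239361), passed the test in none of the comparisons between lines or stages in limma's fit. Its values were 13.8 and 41.4 TPM in shScram preadipocytes and between 33.8 and 50.5 TPM in the other 10 libraries. The 2 shScram preadipocyte libraries differed from each other more than the group means did from one another. The shFto values were 39.6 and 39.8 TPM as preadipocytes, then 45.1 and 44.6 TPM at MCE and 48.4 and 50.5 TPM at Diff. The difference between lines in preadipocytes was 0.70 ± 0.39 (adjusted p = 0.194), and it turned to -0.06 without replicate 1 of shScram Pre (adjusted p = 0.827). Keap1 overlaps Gm16754, an antisense gene, and the sources do not say whether reads were counted by strand, so its level is uncertain.

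Hmox1 encodes heme oxygenase 1, which breaks heme into biliverdin, iron and carbon monoxide (ENSMUSG00000005413, chr8:75093621-75100589). It had the largest difference between the lines among the 9 tested genes at each stage. The preadipocyte libraries held 231 and 411 TPM in shScram against 759 and 730.0 TPM in shFto. The MCE values were 47.2 and 46.7 TPM in shScram against 232 and 242 TPM in shFto. The Diff values were 61.3 and 64.6 TPM in shScram against 269 and 254 TPM in shFto. No shFto library overlapped a shScram library of its stage. The group means were 2.32 times, 5.05 times and 4.15 times higher in shFto at the successive stages. On the log2 scale the differences were 1.27 ± 0.22 (adjusted p = 0.00522), 2.31 ± 0.22 (adjusted p = 0.000189) and 2.04 ± 0.22 (adjusted p = 0.000315). Without replicate 1 of shScram Pre the preadipocyte difference was 0.86. With only the preadipocyte libraries in limma's fit the preadipocyte call was lost (adjusted p = 0.24), and 0% of all tested genes were called. The calls at the MCE and Diff stages held in every alternative. Hmox1 fell in both lines from preadipocytes to the MCE stage, and its mean at the MCE stage was 0.146 of that in preadipocytes in shScram and 0.318 in shFto.

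Nqo1, which encodes a quinone reductase and is a widely used readout of NRF2 activity, moved the other way (ENSMUSG00000003849, chr8:107388225-107403206). Preadipocytes held 35.1 and 43.2 TPM in shScram against 23.9 and 25.3 TPM in shFto. MCE libraries held 55.2 and 58.4 TPM in shScram against 27.0 and 22.8 TPM in shFto. Diff libraries held 33.2 and 34.1 TPM in shScram against 13.2 and 10.5 TPM in shFto. All shFto libraries lay below the shScram libraries of their stage, with differences of -0.64 ± 0.15, -1.16 ± 0.15 and -1.44 ± 0.15 on the log2 scale. The adjusted p was 0.0182, 0.00119 and 0.000293. In preadipocytes the call was lost without either shFto Pre library (-0.68 and -0.60, with adjusted p from 0.0684 to 0.106). That call was also lost with only the preadipocyte libraries in the fit and with array weights. Of all tested genes 0% and 2.64% were called in those fits. The mean in shFto at the Diff stage was 0.352 of that in shScram. Opposite calls for Hmox1 and Nqo1 thus stood side by side at all 3 stages in the unweighted fit of all 12 libraries.

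**Figure D2:**
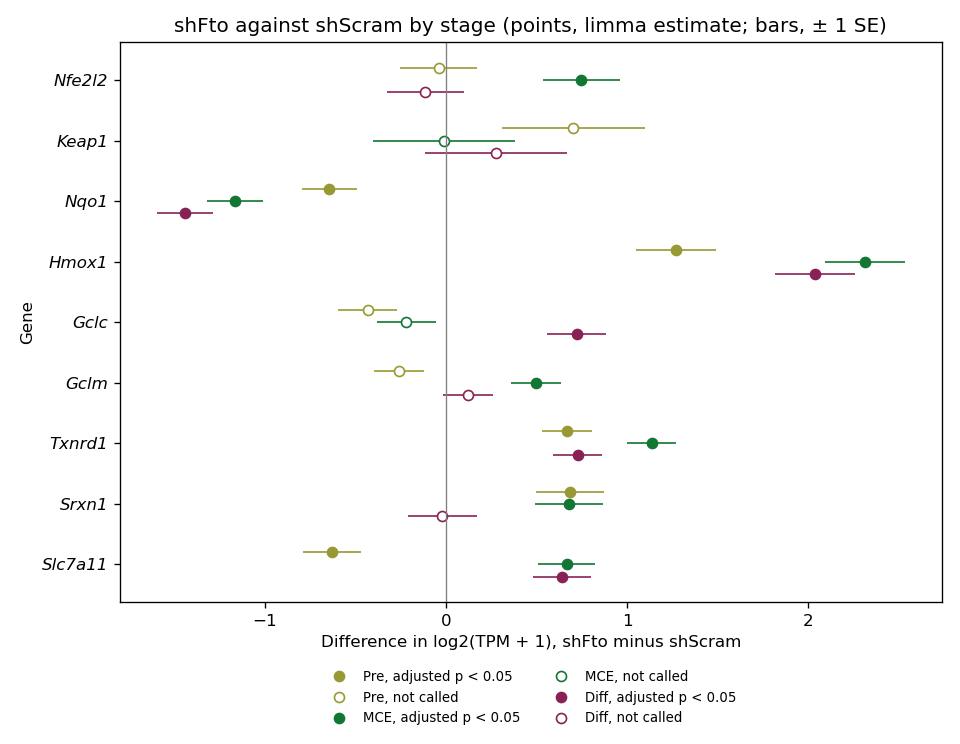
Difference between shFto and shScram on the log2(TPM + 1) scale (horizontal axis) for the 9 tested genes, with a colour for each stage, bars of 1 SE and filled points for adjusted p under 0.05 in limma. Hmox1 and Txnrd1 lay to the right of 0 and Nqo1 to the left at every stage, and Slc7a11 changed sides after the preadipocyte stage.

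The genes of glutathione supply did not move together. Gclc encodes the catalytic subunit of glutamate-cysteine ligase, the rate-limiting enzyme of glutathione synthesis, and Gclm its modifier subunit, while Slc7a11 encodes the cystine importer xCT. Gclc (ENSMUSG00000032350, chr9:77754535-77794485) held 30.8 and 24.7 TPM in shScram preadipocytes against 18.7 and 21.8 TPM in shFto. Its MCE values were 56.3 and 62.6 TPM in shScram against 52.4 and 49.5 TPM in shFto. Its Diff values were 21.3 and 24.6 TPM in shScram against 34.6 and 42.7 TPM in shFto. The shFto values were thus the lower ones at the first 2 stages and the higher ones at the last. Only the Diff difference passed the test (0.72 ± 0.16, adjusted p = 0.0133), and it did not without replicate 1 of shScram Diff (0.62, adjusted p = 0.0977) or replicate 2 of shFto Diff (0.57, adjusted p = 0.115). In preadipocytes it was -0.43 (adjusted p = 0.0735) and at the MCE stage -0.22 (adjusted p = 0.429).

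Gclm (ENSMUSG00000028124, chr3:122245557-122270732) held 36.4 and 30.0 TPM in shScram preadipocytes against 25.9 and 29.0 TPM in shFto. Its MCE values were 10.9 and 10.4 TPM in shScram against 15.5 and 15.3 TPM in shFto, and its Diff values 12.6 and 14.1 TPM in shScram against 14.1 and 15.1 TPM in shFto. The lines did not overlap at the MCE stage, where the difference was 0.50 ± 0.14 (adjusted p = 0.0379). That call was lost without any single library other than those of shScram Pre (adjusted p from 0.0562 to 0.183, with differences of 0.46 to 0.53), with median-ratio scaling (0.44, adjusted p = 0.084) and with quantile normalization (0.38, adjusted p = 0.167). The other differences were -0.26 in preadipocytes (adjusted p = 0.173) and 0.12 at the Diff stage (adjusted p = 0.593). Gclm overlaps Gm17494 on the opposite strand and the pseudogene Gm6061 on its own, so its level is uncertain. The ligase's subunits had different courses, since Gclc was higher and Gclm lower at the MCE stage than in preadipocytes in both lines.

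Slc7a11 (ENSMUSG00000027737, chr3:49892526-50443614) changed the sign of its difference with the stage. Preadipocytes held 17.6 and 19.7 TPM in shScram against 11.001 and 12.3 TPM in shFto. The MCE values were 5.10 and 4.37 TPM in shScram against 8.28 and 7.91 TPM in shFto, and the Diff values 2.38 and 3.23 TPM in shScram against 5.02 and 4.76 TPM in shFto. The lines did not overlap at any stage, with shFto below shScram in preadipocytes and above it later. The differences were -0.63 ± 0.16 (adjusted p = 0.0219), 0.67 ± 0.16 (adjusted p = 0.0206) and 0.64 ± 0.16 (adjusted p = 0.0211). Each call was lost without single libraries of its own stage. These were either shFto library in preadipocytes (adjusted p from 0.0654 to 0.13, differences of -0.71 and -0.55), any of the 4 MCE libraries (adjusted p from 0.0562 to 0.133, differences of 0.57 to 0.76), and either shFto library or replicate 1 of shScram at the Diff stage (adjusted p from 0.0926 to 0.15, differences of 0.48 to 0.67). The preadipocyte call was also lost with only the preadipocyte libraries in the fit and with array weights. Slc7a11 overlaps pseudogenes and the antisense gene Gm37854, so its level is uncertain.

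Of the thioredoxin system, both genes were higher in shFto cells at the stages where they passed the test. Txnrd1 encodes cytosolic thioredoxin reductase, and Srxn1 encodes sulfiredoxin, which repairs overoxidised peroxiredoxins. Txnrd1 (ENSMUSG00000020250, chr10:82833951-82897712) held 55.3 and 72.0 TPM in shScram preadipocytes against 97.2 and 105 TPM in shFto. Its values at MCE were 46.0 and 50.8 TPM in shScram against 106 and 109 TPM in shFto. Its values at Diff were 40.7 and 39.4 TPM in shScram against 66.4 and 67.6 TPM in shFto. No libraries of the lines overlapped, and the differences were 0.67 ± 0.14 (adjusted p = 0.0104), 1.14 ± 0.14 (adjusted p = 0.000703) and 0.73 ± 0.14 (adjusted p = 0.00587). The preadipocyte call was lost without either shFto Pre library (adjusted p from 0.0515 to 0.0654, differences of 0.61 and 0.72). It was also lost with only the preadipocyte libraries in the fit and with array weights. Txnrd1 overlaps Eid3 on its own strand and 2 genes on the other, so its level is uncertain.

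Srxn1 (ENSMUSG00000032802, chr2:152105516-152111376) peaked at the MCE stage in both lines. Its preadipocyte values were 30.5 and 49.3 TPM in shScram against 63.1 and 63.0 TPM in shFto. At the MCE stage it held 128 and 133 TPM in shScram against 209 and 211 TPM in shFto. At the Diff stage the lines overlapped, with 76.5 and 70.5 TPM in shScram against 70.1 and 74.8 TPM in shFto. The differences were 0.69 ± 0.19 (adjusted p = 0.0295) in preadipocytes, 0.68 ± 0.19 (adjusted p = 0.038) at the MCE stage and -0.02 ± 0.19 (adjusted p = 0.956) at the Diff stage. The preadipocyte call was lost with no filter on low values, with only the preadipocyte libraries in the fit and with array weights. Without replicate 1 of shScram Pre the preadipocyte difference was 0.35 (adjusted p = 0.0108), and without any single shFto library it missed the threshold (0.68 to 0.69, adjusted p from 0.05004 to 0.128). At the MCE stage the call was lost without any single library other than those of shScram Pre (0.65 to 0.71, adjusted p from 0.0627 to 0.17) and with no filter on low values (adjusted p = 0.0835).

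Gpx3, the secreted glutathione peroxidase (ENSMUSG00000018339, chr11:54902453-54910377), was listed at 0 in both shScram preadipocyte libraries. The other 10 libraries held 0.308 to 1.27 TPM, the highest being replicate 1 of shFto Diff, whose partner held 0.642 TPM. These levels were too low for the test.

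Counted by stage, 5 of the 9 tested genes were called between the lines in preadipocytes, 3 higher and 2 lower in shFto, while 28.2% of all tested genes were called (15.9% higher and 12.3% lower). In MCE cells 7 of 9 were called, 6 higher and 1 lower, against 17.8% of all tested genes (10.5% and 7.26%). In Diff cells 5 of 9 were called, 4 higher and 1 lower, against 21.2% (11.9% and 9.31%). The median difference over the 9 genes was -0.04, 0.67 and 0.28 at the successive stages, beside 0.08, 0.05 and 0.03 over all tested genes. Averaged over the stages, 4 of 9 were called against 42.8% of all tested genes (24.5% higher and 18.3% lower), with Hmox1 (1.87), Txnrd1 (0.84) and Srxn1 (0.45) higher and Nqo1 (-1.08) lower.

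These counts depended on single libraries, and so did the share called among all tested genes. A fit that left out 1 library had a group of 1 library, whose own spread then did not enter the test. In preadipocytes the count was 6 without replicate 1 of shScram Pre (29% of all tested genes called), 9 without its replicate 2 (62.8%), and 1 without replicate 1 or replicate 2 of shFto Pre (7.32% and 9.88%). At the MCE stage it was 3 without any one MCE library (7.61% to 8.97%) and 4 without any one shFto Pre, shFto Diff or shScram Diff library (14.4% to 14.9%). It stayed at 7 there without either shScram Pre library, where 41% of all tested genes were called. At the Diff stage it was 3 without replicate 1 of shScram Diff (11.2%) and 3 without replicate 2 of shFto Diff (10.3%). Adipocyte markers moved beside these counts. Of 10 markers, 2 were higher in shFto preadipocytes, 6 were lower and 1 higher at the MCE stage, and 8 were lower at the Diff stage, with medians of -0.01, -0.89 and -2.16. Their part in the differences of the antioxidant genes was not tested. In bulk RNA, fewer cells of a type and less RNA per cell cannot be told apart.

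Changes along differentiation were then taken within each line. From preadipocytes to the MCE stage, 6 of 9 genes changed in shScram cells, against 39.1% of all tested genes (12.2% higher and 26.9% lower at the MCE stage). Srxn1 (1.72 ± 0.19, adjusted p = 0.000199), Gclc (1.08 ± 0.16, adjusted p = 0.00114) and Nqo1 (0.53 ± 0.15, adjusted p = 0.0241) rose, and Hmox1 (-2.69 ± 0.22, adjusted p = 3.99e-05), Slc7a11 (-1.77 ± 0.16, adjusted p = 6.73e-05) and Gclm (-1.55 ± 0.14, adjusted p = 6.44e-05) fell. The call of Nqo1 was lost without replicate 1 (0.57, adjusted p = 0.0728) or replicate 2 (0.49, adjusted p = 0.121) of shScram MCE, with only the libraries of the comparison in the fit (adjusted p = 0.209) and with array weights (adjusted p = 0.411). With only the libraries of the comparison in the fit, the calls of Gclc, Gclm, Srxn1 and Slc7a11 were lost too. That of Gclc was also lost with array weights, and that of Hmox1 held in every alternative. Of all tested genes 3.16% and 8.85% were called in these 2 fits. In shFto cells 4 of 9 changed, against 28.7% of all tested genes (8.8% higher and 19.9% lower). Srxn1 (1.72) and Gclc (1.29) rose there, and Hmox1 (-1.65) and Gclm (-0.79) fell. Nqo1 stood at 24.6 ± 1.05 TPM in shFto preadipocytes and 24.9 ± 3.00 TPM at the MCE stage (mean ± SD, n = 2). Over all tested genes the median change was -0.17 in shScram and -0.18 in shFto, and scaling libraries by their median ratio brought it to 0.004 and 0.002. With that scaling the calls over all tested genes went from 1942 higher and 4294 lower to 3202 and 2831 in shScram, and from 1405 and 3180 to 2263 and 2249 in shFto, while Keap1 (1.10, adjusted p = 0.0382) joined the genes called in shScram. Without that scaling the change of Keap1 was 0.88 (adjusted p = 0.105), and it was 0.12 (adjusted p = 0.568) without replicate 1 of shScram Pre.

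**Figure D3:**
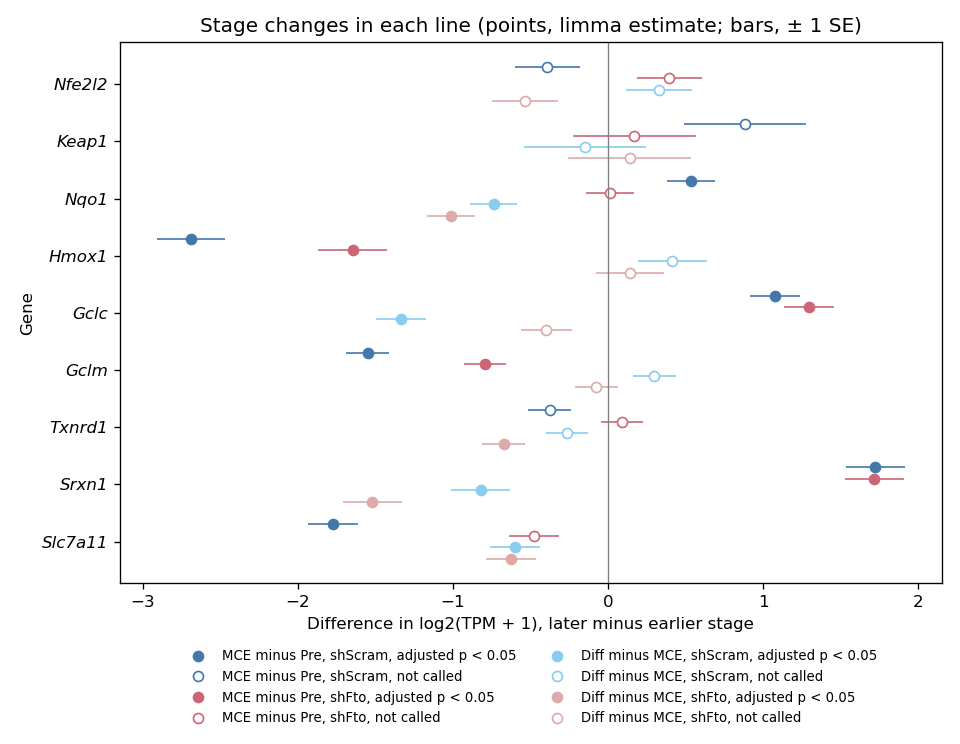
Change between successive stages on the log2(TPM + 1) scale (horizontal axis) for the 9 tested genes in shScram and shFto cells, with bars of 1 SE and filled points for adjusted p under 0.05 in limma. From preadipocytes to the MCE stage Hmox1 and Gclm lay left of 0 and Srxn1 and Gclc right of 0 in both lines, and from the MCE to the Diff stage the filled points lie left of 0.

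From the MCE to the Diff stage, 4 of 9 genes changed in shScram cells and 4 of 9 in shFto cells, all downward, against 25.2% and 26.7% of all tested genes. In shScram cells Gclc (-1.34, adjusted p = 0.000781), Srxn1 (-0.82, adjusted p = 0.0142), Nqo1 (-0.74, adjusted p = 0.00927) and Slc7a11 (-0.60, adjusted p = 0.0251) fell. In shFto cells Srxn1 (-1.52, adjusted p = 0.00071), Nqo1 (-1.02, adjusted p = 0.00184), Txnrd1 (-0.67, adjusted p = 0.00726) and Slc7a11 (-0.63, adjusted p = 0.0193) fell. Lower calls were a minority among all tested genes, at 5.22% in shScram and 6.48% in shFto, beside higher calls at 20% and 20.2%, where the median change was 0.23 and 0.17. After median-ratio scaling these medians were 0.01 and -0.003, and 5 and 6 of the 9 genes were called, again all lower. The calls over all tested genes went with it from 3190 higher and 833 lower to 1866 and 1765 in shScram, and from 3222 and 1034 to 2456 and 2027 in shFto. The differences of this step in shScram stayed the same without a shScram Pre library. The shScram Pre libraries enter the fit of this step only through the pooled spread. The calls in shScram did depend on them. Without either of them 8 of 9 genes were called, 5 lower and 3 higher, while 52% of all tested genes were called. The 3 higher were Nfe2l2 (0.33), Hmox1 (0.42) and Gclm (0.30), with adjusted p of 0.00684, 0.000417 and 0.031 without replicate 1. The shScram count was 1 without replicate 2 of shScram MCE (10.1% of all tested genes called) or replicate 1 of shScram Diff (13.8%), and 2 without replicate 1 of shScram MCE (15.1%) or replicate 2 of shScram Diff (10.9%). The shFto count was 2 without replicate 2 of shFto MCE (12.6%) or replicate 1 of shFto Diff (14.3%).

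Whether the difference between lines itself changed with the stage was tested as an interaction. Between preadipocytes and the MCE stage 1 of 9 genes was called, against 5.11% of all tested genes. That gene was Slc7a11, whose difference was higher by 1.30 ± 0.23 at the MCE stage (adjusted p = 0.0153). It fell in shScram from 18.6 ± 1.49 to 4.74 ± 0.52 TPM, and in shFto it went from 11.7 ± 0.95 to 8.09 ± 0.26 TPM (mean ± SD, n = 2), a change of -0.48 that missed the threshold (adjusted p = 0.0525). The call was lost without replicate 2 of shScram MCE, replicate 1 of shFto Pre or either shFto MCE library (1.20 to 1.33, adjusted p from 0.0685 to 0.0803). The interaction of Hmox1 was 1.04 (adjusted p = 0.0979) and that of Gclm 0.76 (adjusted p = 0.0632). Without replicate 1 of shScram Pre, 4 of 9 were called and 14.1% of all tested genes, and without its replicate 2, 7 of 9 and 52.5%.

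Between the MCE and the Diff stage 0 of 9 interactions were called by limma, against 2.49% of all tested genes. Of the 9 interactions, 3 had an unadjusted p under 0.05, against 2437 of the 15968 over all tested genes. The largest was that of Gclc at 0.94 ± 0.23 (adjusted p = 0.0761). Without either shScram Pre library 4 of 9 were called, beside 17.1% of all tested genes. Both times these were Nfe2l2 (-0.86), Gclc (0.94), Txnrd1 (-0.41) and Srxn1 (-0.70).

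Beside the 10 genes, 80 genes of the same and neighbouring pathways were counted in 7 lists, and 77 of them could be tested. Between the lines 15 were higher and 13 lower in shFto preadipocytes, 13 higher and 7 lower at the MCE stage, and 11 higher and 12 lower at the Diff stage. This came to 36.4%, 26.0% and 29.9% of those tested, beside 28.2%, 17.8% and 21.2% of all tested genes, and their median differences were 0.18, 0.02 and -0.02. Leaving out replicate 1 of shScram Pre gave 17 higher and 19 lower, 24 and 17, and 24 and 24, while 29%, 41% and 45.7% of all tested genes were called. Leaving out replicate 1 of shScram Diff gave 9 and 9, 11 and 6, and 8 and 8, while 20.9%, 14.5% and 11.2% were.

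**Figure D4:**
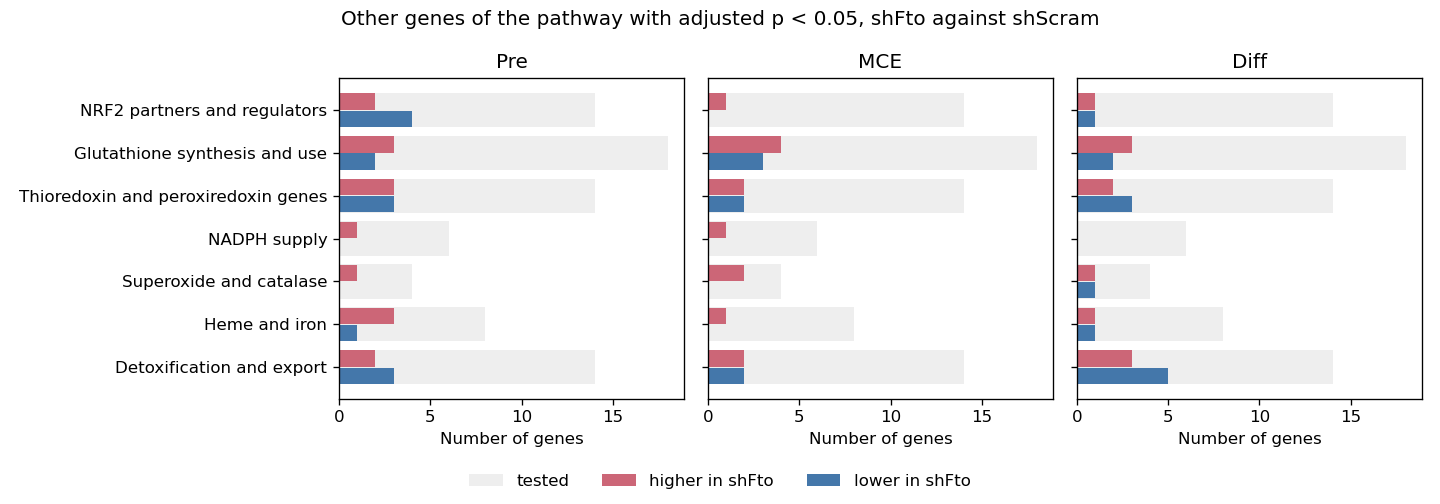
Number of genes called higher and lower in shFto than in shScram cells (horizontal axis, limma adjusted p under 0.05) for the 7 pathway lists (vertical axis), in a panel for each stage. The lists of glutathione, thioredoxin and detoxification genes had calls in both directions in every panel, such as 4 higher and 3 lower of 18 glutathione genes at the MCE stage. Of all tested genes 10.5% were called higher and 7.26% lower at that stage.

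In the list of heme and iron genes, 3 of 8 were higher and 1 lower in shFto preadipocytes, 1 was higher at the MCE stage, and 1 was higher and 1 lower at the Diff stage. Of all tested genes 28.2%, 17.8% and 21.2% were called at these stages. Slc40a1, which encodes the iron exporter ferroportin, was higher at every stage, as Hmox1 was. Its values were 15.7 and 17.6 TPM in shScram against 103 and 121 TPM in shFto preadipocytes. MCE libraries held 0.952 and 0.621 TPM in shScram against 9.57 and 9.95 TPM in shFto. Diff libraries held 4.57 and 4.57 TPM in shScram against 30.3 and 31.7 TPM in shFto. The lines were far apart in each case, with differences of 2.68, 2.60 and 2.52 (adjusted p = 2.01e-05, 1.54e-05 and 7.84e-06). Tfrc, the transferrin receptor, was lower in preadipocytes (-1.06, adjusted p = 0.00233) and at the Diff stage (-0.53, adjusted p = 0.0378). Ftl1, ferritin light chain, was called higher in preadipocytes at 1.76, and that difference was 0.69 without replicate 1 of shScram Pre. Blvrb, a biliverdin reductase, differed by 0.99 in preadipocytes and by 0.39 without that library.

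Among 14 tested partners and regulators of NRF2, 2 were higher and 4 lower in shFto preadipocytes, 1 was higher at the MCE stage, and 1 was higher and 1 lower at the Diff stage. The shares called among all tested genes were 28.2%, 17.8% and 21.2%. Maff, a small MAF protein, held 2.19 and 2.61 TPM in shScram against 15.5 and 15.1 TPM in shFto at the MCE stage. It was higher at all 3 stages, by 1.34, 2.27 and 1.86 (adjusted p = 0.0208, 0.00198 and 0.0045), and by 0.75 in preadipocytes without replicate 1 of shScram Pre. Bach1, the repressor that competes with NRF2, held 43.7 and 37.2 TPM in shScram preadipocytes against 16.9 and 21.7 TPM in shFto. Its difference was -1.04 there (adjusted p = 0.00223), and -0.46 (adjusted p = 0.0626) and -0.32 (adjusted p = 0.17) at the later stages. Cul3, the scaffold of the ligase that KEAP1 serves, was lower in preadipocytes (-0.99, and -0.46 without replicate 1 of shScram Pre). Mafk was higher there (1.00, adjusted p = 0.0463), and the call was lost without that library (0.40, adjusted p = 0.0859). Mafk overlaps Tmem184a on the opposite strand and Cul3 overlaps Gm37262 and Gm37902 on its own, so both levels are uncertain. Prdx1, a peroxiredoxin and an NRF2 target, was lower at the Diff stage (-0.54, adjusted p = 0.0137).

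Genes that use glutathione were split. Of 18, 3 were higher and 2 lower in shFto preadipocytes, 4 higher and 3 lower at the MCE stage, and 3 higher and 2 lower at the Diff stage. Beside this, 28.2%, 17.8% and 21.2% of all tested genes were called. Gpx7, a peroxidase of the endoplasmic reticulum, was higher at all stages (1.53, 1.30 and 1.27), with 14.4 and 16.5 TPM in shScram against 38.9 and 38.6 TPM in shFto at the Diff stage. The membrane-bound transferases Mgst3 and Mgst1 were lower at the MCE stage (-1.74 and -0.81) and at the Diff stage (-1.19 and -1.01). Gsta4 and Gstm1, soluble glutathione transferases, were lower in preadipocytes (-0.9998 and -0.99). Gsto1, an omega-class transferase, was higher at all stages (0.50, 0.67 and 0.47), and its Diff call was lost without replicate 1 of shScram Diff (0.52, adjusted p = 0.0672). Gpx8, another peroxidase of the endoplasmic reticulum, was higher at the MCE stage (0.81, adjusted p = 0.0312), and overlaps Cdc20b on the opposite strand, as Gsto1 overlaps Cfap43, so that both levels are uncertain.

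Of the 14 thioredoxin and peroxiredoxin genes, 3 were higher and 3 lower in shFto preadipocytes, 2 and 2 at the MCE stage, and 2 and 3 at the Diff stage. Among all tested genes 28.2%, 17.8% and 21.2% were called. The peroxiredoxin Prdx6 was higher at all stages (0.91, 0.75 and 0.95), and so was Prdx5 (1.42, 0.84 and 0.94), whose level is uncertain because it overlaps Trmt112 on the opposite strand. The sestrin Sesn1 was lower at all stages (-0.97, -1.59 and -0.62). Sesn3, another sestrin, was lower in preadipocytes (-1.21, adjusted p = 0.00179) and at the Diff stage (-0.63, adjusted p = 0.0262), and its difference at the MCE stage was -0.18 (adjusted p = 0.52). The Diff call of Sesn3 was lost without replicate 1 of shScram Diff (-0.69, adjusted p = 0.0851). Txnip, which binds and inhibits thioredoxin, was lower at the MCE stage (-0.72) and overlaps an antisense gene.

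The 4 superoxide and catalase genes gave 1 higher call in preadipocytes, 2 higher calls at the MCE stage, and 1 higher and 1 lower at the Diff stage. Calls took 28.2%, 17.8% and 21.2% of all tested genes. Sod3, the extracellular superoxide dismutase, held 63.8 and 58.6 TPM in shScram against 323 and 312 TPM in shFto at the MCE stage (2.36, adjusted p = 0.00977). In preadipocytes Sod3 differed by 1.87, and by 0.89 without replicate 1 of shScram Pre. Sod2, the mitochondrial form, was higher at the MCE stage (1.06) and at the Diff stage (0.50). Cat, the catalase of peroxisomes, rose from the MCE to the Diff stage in shScram cells (1.78, adjusted p = 0.000116), while its change in shFto cells was -0.19 (adjusted p = 0.387). Its Diff values were 225 and 191 TPM in shScram against 39.6 and 37.97 TPM in shFto, and the difference was -2.39 (adjusted p = 1.22e-05).

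Of the 6 genes that supply NADPH, 1 was higher in preadipocytes (Taldo1, transaldolase, 0.92, and 0.32 without replicate 1 of shScram Pre), 1 at the MCE stage (Me1, malic enzyme, 0.50) and 0 at the Diff stage by limma. Of 14 tested genes of detoxification and export, 2 were higher and 3 lower in shFto preadipocytes, 2 and 2 at the MCE stage, and 3 and 5 at the Diff stage. Both lists stand beside 28.2%, 17.8% and 21.2% of all tested genes called at the successive stages. Akr1b3, an aldose reductase, was higher at all stages (1.29, 0.78 and 1.37), and it overlaps an antisense gene. The aldehyde oxidase gene Aox1 was lower at all stages (-0.43, -0.996 and -0.83), and its preadipocyte call was lost without replicate 1 of shScram Pre (-0.39, adjusted p = 0.0704). Abcc4, an exporter, was lower at the MCE stage (-1.07) and at the Diff stage (-0.69). Ugdh, which makes UDP-glucuronate, was lower in preadipocytes (-0.43) and higher at the MCE stage (0.57) and the Diff stage (0.37), where the call was lost without replicate 1 of shScram Diff (0.35, adjusted p = 0.186). Abcc4 and Ugdh overlap other genes, so their levels are uncertain. Ptgr1, a prostaglandin reductase, was higher at the Diff stage (0.70). Osgin1 was called higher in preadipocytes (1.41, adjusted p = 0.034), and its difference was 0.64 without replicate 1 of shScram Pre. The preadipocyte calls of Ftl1, Blvrb, Cul3, Mafk, Taldo1, Aox1 and Osgin1 were lost without replicate 1 of shScram Diff, at adjusted p from 0.0517 to 0.0745 with the differences as given above.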

How the data were processed

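RNA was sequenced in 12 libraries. The authors describe fragmented total RNA, size-selected to short fragments, for compound-treated cells of the same study. They give no separate preparation for the 12 libraries used here. The deposited TPM values were made by the authors with StringTie 2.1.4 on genes of Ensembl release 102, after trimming by Trim Galore 0.6.5 and alignment by HISAT2 2.1.0 (GRCm38). The authors ran DESeq2 1.30.1 for their own comparisons, which were not used here. Since TPM has a fixed total, a gene's value also moves with the rest of the transcriptome.

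Here log2(TPM + 1) was fitted with limma 3.58.1 in R 4.3.3 (a mean for each of 6 groups, eBayes with a trend, 6 residual degrees of freedom) for the 15968 genes that reached 1 TPM in 2 or more libraries. Tests were two-sided, with Benjamini-Hochberg adjustment over all genes tested, and called means an adjusted p under 0.05. The fit was tested on simulated data, and no library pair held identical values. Summaries used Python 3.11.15.

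All 10 genes were followed throughout. Each pathway list gave at most 4 named genes a comparison, those with the largest differences among called genes with a mean TPM of 5 or more, and some of these are given at their other stages too. Gene positions came from GENCODE release M21 on GRCm38. The members, lists, markers and motif were chosen with earlier results of these data known, so none is independent evidence. Alternatives were another pseudocount, other filters and scalings, fewer libraries in the fit, eBayes without a trend, array weights, the replicate number as a block and each library left out. A fit without replicate 1 of both shScram Pre and shScram Diff, and the counts of listed genes without either, were chosen after seeing the data.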

Additional observations from a re-analysis of the deposited data

Results flagged for a closer look

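Of 9 antioxidant genes and 77 further pathway genes tested, 10 had a difference between shFto and shScram that changed with the stage by limma's interaction test. Between preadipocytes and the MCE stage these were 1 of 9 and 7 of 77 (9.09%), against 5.11% of all tested genes. Between the MCE and the Diff stage they were 0 of 9 and 2 of 77 (2.60%), against 2.49%. Slc7a11 is described in the report, with 1.30 on the log2(TPM + 1) scale between preadipocytes and the MCE stage (adjusted p = 0.0153). Over the same step the difference was higher at the MCE stage for Gsta4, a glutathione transferase (1.54, adjusted p = 0.0155), Tfrc, the transferrin receptor (1.12, adjusted p = 0.0227), and Sesn3, a sestrin (1.03, adjusted p = 0.0415). It was also higher for Sod2, mitochondrial superoxide dismutase (1.02, adjusted p = 0.00793), and for Ugdh, which makes UDP-glucuronate (1.00, adjusted p = 0.0101). It was lower for Abcc4, an exporter (-0.97, adjusted p = 0.0275), and for Osgin1 (-2.57, adjusted p = 0.0388). Osgin1 held 1.00 and 4.80 TPM in shScram preadipocytes, and its interaction was -1.80 without replicate 1 of shScram Pre (adjusted p = 0.00193).

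Between the MCE and the Diff stage the difference fell by 1.97 for Cat, catalase (adjusted p = 0.00246), and was higher by 0.97 at the Diff stage for Sesn1 (adjusted p = 0.0195). Without replicate 1 of shScram Diff the interactions of Sesn1 (0.92, adjusted p = 0.0933), Sesn3 (1.03, adjusted p = 0.0746), Abcc4 (-0.97, adjusted p = 0.0526) and Osgin1 (-2.57, adjusted p = 0.0666) missed the threshold.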

How the results depend on the processing

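Of the antioxidant genes' 40 calls, 18 held in every one of the up to 22 alternatives, and none of the 40 changed sign. Without 1 library at a time, the members called between the lines numbered 1 to 9 in preadipocytes, 3 to 7 at the MCE stage, 3 to 5 at the Diff stage and 4 to 6 averaged over stages. For the step from preadipocytes to the MCE stage they numbered 5 to 8 in shScram and 4 to 6 in shFto, and for the step to the Diff stage 1 to 8 and 2 to 6. The interactions gave 0 to 7 calls for the first step and 0 to 4 for the second. With only the libraries of a comparison in the fit, the counts were 0 in preadipocytes, 1 for the step to the MCE stage in shScram, and 0 and 4 for the interactions. The shares of all tested genes called were then 0%, 3.16%, 1.5% and 16.9%. With array weights the counts were 1 in preadipocytes, 8 for the step to the Diff stage in shScram, and 0 and 4 for the interactions. The shares of all tested genes called were then 2.64%, 47.5%, 1.45% and 18.5%. The fit without replicate 1 of both shScram Pre and shScram Diff left 1 library in each of these groups, and its counts are not given. Each fit that left out 1 library also left a group of 1 library, so the counts given for those fits carry the same limit. The share called among all tested genes also moved between the fits that left out 1 library. The cause of these shifts was not tested.

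Signs that changed were those of uncalled differences near 0 or resting on replicate 1 of shScram Pre. Without both libraries, Nfe2l2 (0.34) and Keap1 (-0.0577) between lines in preadipocytes, Srxn1 (0.0381) at the Diff stage, and the first interactions of Keap1 (0.0484) and Srxn1 (0.33) changed sign. Median-ratio scaling gave -0.0256 for Gclc averaged over stages, -0.0711 for Keap1 and -0.073 for Hmox1 in the late step of shFto, 0.00605 for the first interaction of Srxn1 and 0.00608 for the second of Slc7a11. Quantile normalization gave -0.0628 for Gclc, 0.0214 for Srxn1 and 0.0357 for Slc7a11 in those results, and a pseudocount of 0.1 gave 0.033 for Slc7a11. Leaving out 1 library at a time took the preadipocyte differences to between -0.42 and 0.34 for Nfe2l2 and between -0.0577 and 1.46 for Keap1, that of Keap1 at the MCE stage to between -0.019 and 0.000186, that of Srxn1 at the Diff stage to between -0.0771 and 0.0381, and that of Gclc averaged over stages to between -0.0261 and 0.0753. It took the late step of Keap1 in shScram to between -0.41 and 0.113, the early step of Nqo1 in shFto to between -0.105 and 0.131, the first interactions of Keap1 and Srxn1 to between -1.47 and 0.0484 and between -0.34 and 0.33, and the second of Slc7a11 to between -0.19 and 0.136. Quantile normalization also took the late fall of Slc7a11 from -0.60 to -1.02 in shScram and from -0.63 to -0.98 in shFto.

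The replicate number as a block gave 5 calls at the MCE stage, with Nfe2l2 (adjusted p = 0.0562) and Gclm (adjusted p = 0.0631) lost, and the main count in every other comparison. The labels tie the numbers to no shared culture, and the deviations of same-numbered libraries correlated at -0.29 to 0.17, with 2 of 15 pairs above 0.1. With 2 libraries a group and an unknown depth, small differences of low genes such as Gpx3 could not be resolved.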
